A study of Mus musculus with 8 samples.

Results

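Accessible chromatin was examined at 7 genes that regulate the differentiation of spermatogonia and their entry into meiosis, Kit, Stra8, Sohlh1, Sohlh2, Dmrt1, Dmrtb1 and Rhox13. Their peaks were those that the deposited ATAC-seq table assigns to one of these symbols, spelled exactly so. The 7 genes are among 21490 with an assigned peak, and they held 132 of the 328733 peaks. Peaks that overlapped by at least 1 bp across libraries were merged, which gave these genes 31 of 87144 regions. ATAC-seq tags DNA where a transposase can reach it, so that sequenced tags pile up over open chromatin.

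All mice carried the PIWIL2-eGFP transgene, with eGFP driven by the promoter of Piwil2, a gene active in germ cells and not in spermatogonia alone. All mice, controls included, were fed WIN 18,446, which blocks retinoic acid (RA) synthesis, at 100 mg/kg for 7 days from 2 dpp. The 0 h group was collected without RA, and the 18 h, 48 h and 120 h groups were collected that long after 200 µg RA given at 9 dpp. Each timepoint had 2 libraries of sorted eGFP-positive testis cells, and each library came from 1 mouse. The sample labels and the study's methods differ on the strain background, which is C57BL/6 x 129s4/SvJae in the labels and C57BL/6 x SJL in the methods. They also differ on the number of cells in a sample, which is 100000 in the labels and 50000 in the methods.

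Spermatogonia wait in an undifferentiated state until RA starts their differentiation, and a further exposure to RA accompanies entry into meiosis. Kit and Stra8 are the best known readouts of the response, one as the receptor that marks differentiating spermatogonia and the other as a gene induced by RA that is needed for meiotic initiation. The SOHLH and DMRT proteins are transcription factors that pace these steps. RA acts through receptors that bind paired half-sites in DNA, known as DR elements.

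Summit values are tag coverage, which the authors made comparable in depth by keeping an equal number of tags from each library. Depending on the library, the smallest listed summit value was 24 or 25. A region without a peak has no listed height. That is not a known height of 0, and it need not lie under the smallest listed value. The 0 h libraries had 72215 and 69089 peaks, and the 6 later libraries had 24643 to 39551. The 15536 regions shared by all 8 libraries had a median log2 height of 7.81 and 8.08 at 0 h and 6.43 to 7.38 later. Germ cell markers had a start peak for 6 of 6 genes in both 0 h libraries and for 5 or 6 in each later one, with summed heights of 2555 to 3315 before RA, 1226 to 1555 after 18 h, 991 to 1385 after 48 h and 1724 to 2106 after 120 h. Sertoli cell markers summed to 531 to 698 at 0 h, with 5 of 6 genes present and Rhox5 absent throughout, and to 105 to 246 later with 2 or 3 present. Peritubular myoid markers summed to 460 to 548 at 0 h and to 86 to 276 later. The 6 Leydig cell markers had no start peak in any library. Endothelial markers summed to 74 to 76 at 0 h and to at most 30 later, and leukocyte markers to at most 36 in any library. A marker without a start peak added nothing to these sums, although its height is not known to be 0. The sums may thus overstate the fall where markers lost their peak. An accessible region is not proof of expression, and the part of somatic cells in the differences at 0 h was not tested. In sorted pools of cells, fewer cells with an open region and a less open region in each cell cannot be told apart.

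A region is named here by its gene and by a distance in bp to the gene start, negative for upstream. That distance is the one smallest in size that the table gives for any peak of the region, in any library. Sequence windows and annotated features were instead read at the highest summit of the region, which can belong to another peak. The 7 stretches that follow were chosen because the results turn on them. They are the Kit start, the Stra8 start, the Stra8 region that came and went, the Stra8 region seen at 120 h, the Sohlh2 start, the Dmrtb1 start and the most lasting Dmrtb1 region. They were read from GRCm38 (mm10) on the strand of the gene, from windows of 300 bases around the summit. Of each window only the longest stretch without bases annotated as UTR or non-coding exon is printed. Other bases of the window are left out too. For the Stra8 start a short site within such bases is printed instead. Capitals mark GGGCGG (the GC box) on either strand, ACATTGT (the core of the DMRT1 motif, ACAATGT on the other strand) and, in Stra8 +1120, a repeated stretch of 12 bases.
Kit -11, chr5:75574795-75574915, + strand: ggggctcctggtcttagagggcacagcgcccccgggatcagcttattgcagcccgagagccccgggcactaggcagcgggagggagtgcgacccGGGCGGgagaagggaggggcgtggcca
Stra8 -128, chr6:34920792-34920821, + strand: ggcaagttgttACAATGTtttcaccaatgt
Stra8 -1440, chr6:34919371-34919670, + strand: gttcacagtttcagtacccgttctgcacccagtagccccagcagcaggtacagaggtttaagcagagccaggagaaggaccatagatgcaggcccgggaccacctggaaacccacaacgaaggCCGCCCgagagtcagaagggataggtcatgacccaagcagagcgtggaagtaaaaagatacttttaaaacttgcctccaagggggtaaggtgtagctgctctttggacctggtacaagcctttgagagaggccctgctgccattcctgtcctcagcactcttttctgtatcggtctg
Stra8 +1120, chr6:34921931-34922230, + strand: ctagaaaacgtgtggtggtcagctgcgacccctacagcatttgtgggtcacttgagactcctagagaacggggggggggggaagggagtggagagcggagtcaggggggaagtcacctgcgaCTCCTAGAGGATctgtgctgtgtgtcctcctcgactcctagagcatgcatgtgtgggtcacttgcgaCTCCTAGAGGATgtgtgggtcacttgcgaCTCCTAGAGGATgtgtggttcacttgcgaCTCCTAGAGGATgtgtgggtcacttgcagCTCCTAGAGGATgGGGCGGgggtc
Sohlh2 +4, chr3:55181803-55182027, + strand: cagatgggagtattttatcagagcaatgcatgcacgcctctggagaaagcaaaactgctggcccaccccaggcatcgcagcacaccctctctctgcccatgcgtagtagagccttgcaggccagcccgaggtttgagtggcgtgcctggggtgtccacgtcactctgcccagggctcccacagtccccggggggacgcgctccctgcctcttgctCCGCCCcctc
Dmrtb1 +34, chr4:107684231-107684406, - strand: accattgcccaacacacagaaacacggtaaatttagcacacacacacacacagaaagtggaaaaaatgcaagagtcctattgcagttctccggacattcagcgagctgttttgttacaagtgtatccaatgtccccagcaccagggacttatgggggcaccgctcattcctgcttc
Dmrtb1 +14722, chr4:107669227-107669526, - strand: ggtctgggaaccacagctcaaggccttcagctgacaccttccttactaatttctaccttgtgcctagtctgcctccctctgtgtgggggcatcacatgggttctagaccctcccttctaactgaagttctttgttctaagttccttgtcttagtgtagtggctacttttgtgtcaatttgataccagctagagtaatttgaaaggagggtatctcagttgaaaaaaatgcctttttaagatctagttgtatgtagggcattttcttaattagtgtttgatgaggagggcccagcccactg

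The Kit and Stra8 starts differ in base content. In the 300 bases around the summit, Kit -11 had 70.3% GC and 27 CpG, whereas Stra8 -128 had 54.3% GC and 9 CpG, against medians of 61% and 19 in the shared regions. Kit -11 lies in a CpG island and Stra8 -128 does not. Stra8 +1120 held ctcctagaggat 5 times in its window, and 2.49% of all 87144 windows held any stretch of 12 bases as often, simple runs left out. Whether tags align uniquely to such a repeat was not tested.

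On both strands, GGGCGG was present in 14 of the 31 member windows, against 23.4% of all windows, 53.6% of the shared ones and 35.7% of 32851 RefSeq promoters of 300 bases. Among the 8 member regions present in all libraries, 6 held it, and Stra8 -128 and Rhox13 +248 did not. ACATTGT was found in 3 windows, Stra8 -128, Stra8 +20704 and Kit +26709, against 11.1% of all windows and 2.96% of promoters. CNCCTCAG, the motif known for STRA8, was found in 5 windows, Stra8 -800, Stra8 +27712, Sohlh2 +4, Sohlh2 +8228 and Dmrtb1 -5662, against 7.93% of all windows and 7.94% of promoters. The DR1, DR2 and DR5 elements were sought as exact pairs of RGKTCA half-sites (R is A or G, K is G or T), the number in the name giving their spacing in bases. They were found in 0 of 31 windows, against 0.182%, 0.254% and 0.141% of all windows. With shares so low, 0 of 31 says little, and looser forms of these elements were not sought. These matches describe letters in short windows and say nothing of binding.

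Peaks of all 7 genes were present at every timepoint, taken as a peak in both libraries, against 72.8% of the 20673 genes counted at any timepoint. The count was 5 of 7 with peaks of at least 50, without Dmrtb1 and Rhox13, and 5 of 7 with the 24643 highest peaks of each library, without Kit and Rhox13. It was 6 of 7 with peaks in the gene or within 1000 bp of its start, without Dmrtb1. A peak within 1000 bp of the gene start was present at every timepoint for 6 of 7 genes, all but Dmrtb1, against 67% of 14975 genes. Of the 31 regions, 23 were counted at a timepoint because both of its libraries had a peak, and 8 had peaks in single libraries only. Among the 23, 9 were counted at 0 h only, against 49.8% of 61310 regions overall. All 4 timepoints shared 8, against 25.3% overall. The remaining 6 fell to 5 other combinations, and 2 of these regions were counted at 120 h only, against 2.49% overall.

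**Figure D1:**
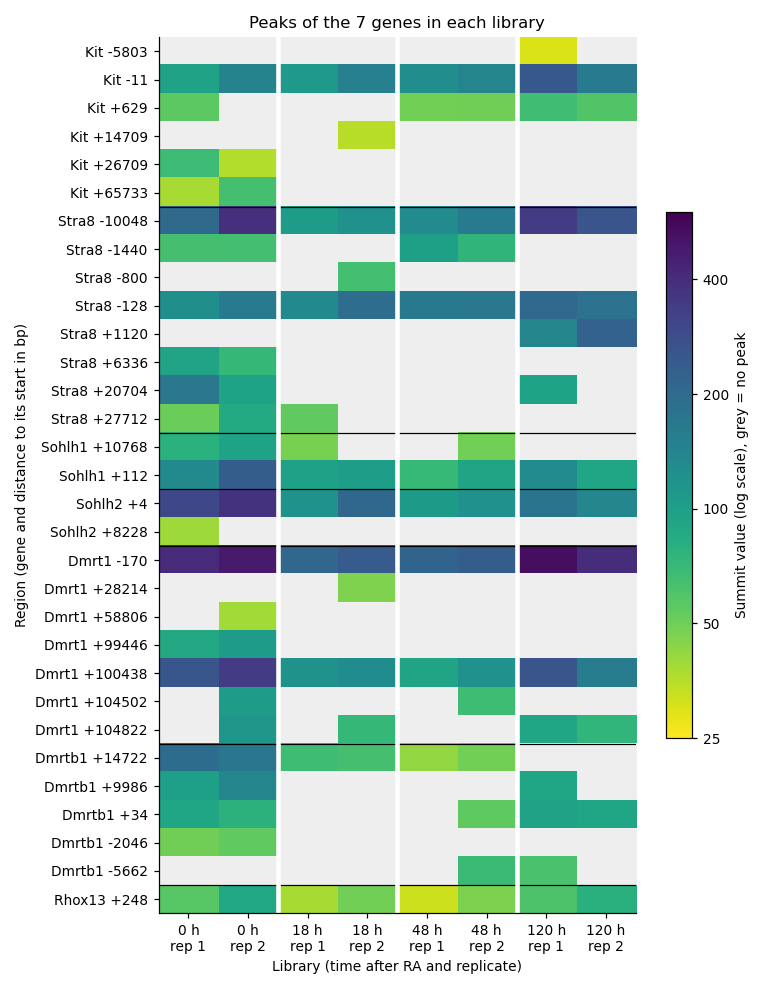
Each row is 1 of the 31 regions and each column 1 library, with the colour giving the summit value on a log scale and grey marking no peak. The 8 rows filled in every column include the Kit, Stra8, Sohlh1, Sohlh2, Dmrt1 and Rhox13 starts, while no Dmrtb1 row is filled throughout.

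The receptor gene Kit encodes the receptor tyrosine kinase for KIT ligand. Its gene lies on chr5:75574916-75656722, + strand, in GRCm38 and had 6 regions. Kit -11 (chr5:75574591-75575349) covers the start, with its summit in the untranslated part of the first exon. It had summit values of 96 and 144 before RA, 107 and 150 after 18 h, 127 and 142 after 48 h and 250 and 159 after 120 h. The 18 h and 48 h values fell within or close to the range at 0 h, and both 120 h libraries lay above both 0 h libraries.

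Kit +629, in an intron and within a CpG island, had 56 in 1 library before RA, no peak after 18 h, 49 and 50 after 48 h, and 66 and 59 after 120 h. It was the only member region counted at 48 h and 120 h together, a combination held by 0.173% of the 61310 regions. Kit +26709, in an intron, had 68 and 36 at 0 h only, and Kit +65733, with its summit in coding sequence, had 38 and 64 at 0 h only. Both lie low among the 30507 regions counted at 0 h only, where the lower library had a median of 54 and 9.78% and 14.6% of regions were lower. Kit -5803 and Kit +14709 each had 1 peak in 1 library, of 30 and 35.

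Stra8 encodes the RA-induced factor of meiotic initiation. It lies on chr6:34920163-34939344, + strand, and had 8 regions. Stra8 -128 (chr6:34920631-34921059) covers the start used by the table and lies in the untranslated part of a longer annotated transcript. It had 123 and 159 before RA, 133 and 192 after 18 h, 165 and 168 after 48 h and 202 and 182 after 120 h. The lower 18 h library sat between the 0 h libraries, whereas both 48 h and both 120 h libraries sat above them.

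Stra8 -10048 (chr6:34910312-34911260) was assigned to Stra8 by distance, but its summit lies at the start of the neighbouring gene Wdr91, in a CpG island. Its values were 200 and 384 before RA, 103 and 120 after 18 h, 129 and 160 after 48 h and 344 and 261 after 120 h. All 4 libraries at 18 h and 48 h were below both 0 h libraries, and the 120 h libraries lay between them. The log2 ratio of Stra8 -128 to Stra8 -10048 within a library, which no scaling of libraries can alter, was -0.70 and -1.27 before RA, 0.37 and 0.68 after 18 h, 0.36 and 0.07 after 48 h and -0.77 and -0.52 after 120 h. The ratio was above 0 in all 4 libraries at 18 h and 48 h and below 0 in the other 4, and 0 h against all later libraries differed by -1.02 (exact permutation test, two-sided, p = 0.143, adjusted p = 0.143 over the 2 ratios tested, n = 2 against 6). The smallest p that this design allows is 0.0714.

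Upstream of the start, Stra8 -1440 had 64 and 65 before RA, no peak after 18 h, 98 and 75 after 48 h and no peak after 120 h. No other member region was counted at 0 h and 48 h alone, which 2.31% of regions were. Stra8 -800 had 65 in 1 library at 18 h. Downstream, Stra8 +1120 (chr6:34921766-34922348, intron, CpG island) had 141 and 220 at 120 h and no peak in the other 6 libraries. Its lower value exceeded that of 96.9% of the 1526 regions counted at 120 h only, whose median was 51, and it ranked 22 among the 831 of them with no peak in any other library.

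Of the other Stra8 regions, Stra8 +6336, in an intron, had 94 and 72 at 0 h only. Stra8 +20704, beyond the end of the gene, had 171 and 95 at 0 h and 95 in 1 library at 120 h. Stra8 +27712 had 51 and 86 at 0 h and 54 in 1 library at 18 h. All 3 were counted at 0 h only.

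**Figure D2:**
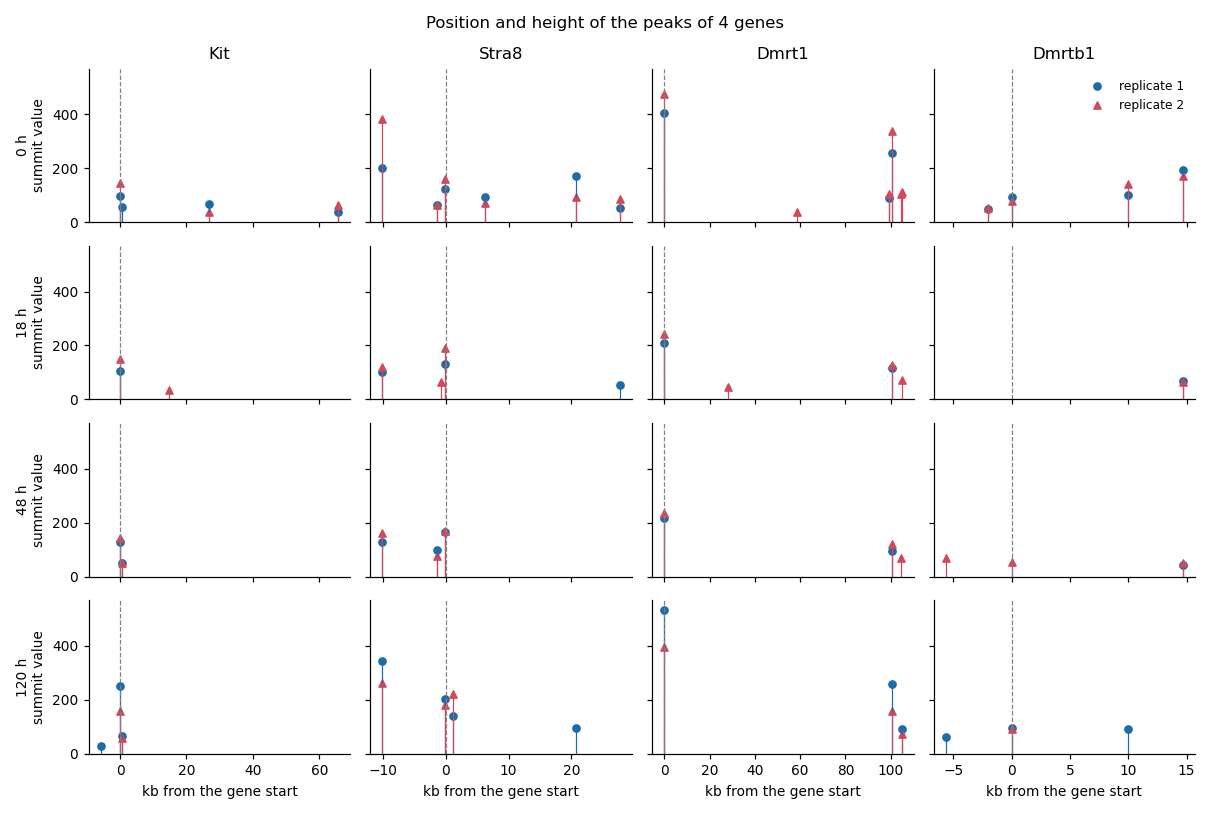
Peaks of Kit, Stra8, Dmrt1 and Dmrtb1 are drawn by distance from the gene start in kb (horizontal) and summit value (vertical), with a row for each timepoint and a symbol for each replicate. The Stra8 panels show the start peak in every row and the peak of 141 and 220 just downstream of it at 120 h only, and the Dmrtb1 panels show a start peak in no library at 18 h.

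Sohlh1 and Sohlh2 encode basic helix-loop-helix factors of the germline that promote spermatogonial differentiation. Sohlh1 +112 (chr2:25847035-25847848) had 133 and 235 before RA, 97 and 101 after 18 h, 71 and 94 after 48 h and 130 and 91 after 120 h. Every later library was below both 0 h libraries. Sohlh1 +10768, beyond the end of this short gene on the minus strand, had 79 and 95 at 0 h, 48 in 1 library at 18 h and 49 in 1 library at 48 h.

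Sohlh2 +4 (chr3:55181307-55182935) had 301 and 378 before RA, 118 and 204 after 18 h, 106 and 120 after 48 h and 177 and 138 after 120 h. Again no later library reached a 0 h value, and the lowest library was at 48 h. The table also assigns this region to Ccdc169. Sohlh2 +8228, in an intron, had a single peak of 40 at 0 h.

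Dmrt1 encodes a DM-domain transcription factor that holds back meiotic entry in spermatogonia and is also known in Sertoli cells. Dmrt1 -170 (chr19:25505189-25506217, CpG island) had the highest summit value of any member region in all 8 libraries. Its values were 406 and 476 before RA, 210 and 241 after 18 h, 216 and 235 after 48 h and 535 and 398 after 120 h. The 18 h and 48 h libraries fell to about the same level below 0 h, and the 120 h libraries lay on either side of the 0 h pair. Sertoli cell markers, summed over those with a start peak, were higher at 0 h than later. The sums were 531 to 698 from 5 genes at 0 h and 120 to 246 from 2 or 3 genes at 120 h. Their part in the height of this region was not tested.

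A second Dmrt1 region, Dmrt1 +100438 (chr19:25605678-25606490, CpG island), lies between the end of Dmrt1 and the start of its neighbour Dmrt3. It had 256 and 340 before RA, 117 and 128 after 18 h, 94 and 120 after 48 h and 260 and 158 after 120 h. The log2 ratio of the start region to this one within a library was 0.67 and 0.49 before RA, 0.84 and 0.91 after 18 h, 1.20 and 0.97 after 48 h and 1.04 and 1.33 after 120 h. It was higher in each of the 6 later libraries than in both 0 h libraries, with a difference between 0 h and later of -0.47 (exact permutation test, two-sided, p = 0.0714, the smallest possible, adjusted p = 0.143, n = 2 against 6). Between it and the end of Dmrt1, Dmrt1 +99446 had 88 and 103 at 0 h only. Dmrt1 +104822, at the Dmrt3 start, had 92 and 74 at 120 h and single peaks of 112 at 0 h and 72 at 18 h. Dmrt1 +28214, Dmrt1 +58806 and Dmrt1 +104502 had peaks of 39 to 103 in single libraries of a timepoint.

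Dmrtb1 encodes another DM-domain factor, active in differentiating spermatogonia near the switch from mitosis to meiosis. It lies on chr4:107676290-107684230, minus strand, and had 5 regions, none with a peak in every library. Its start region Dmrtb1 +34 (chr4:107682933-107684409, CpG island) had 93 and 78 before RA, no peak after 18 h, 55 in 1 library after 48 h and 96 and 92 after 120 h. It was the only member region counted at 0 h and 120 h but not between, a combination held by 3.77% of regions. The 120 h pair and the 0 h pair overlapped, and the height in the libraries without a peak is not known.

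Dmrtb1 +14722 (chr4:107669016-107669637), downstream of the gene, ran the other way. It had 194 and 172 before RA, 67 and 64 after 18 h, 42 and 49 after 48 h and no peak after 120 h. The values of successive timepoints did not overlap, and 5.76% of regions were likewise counted at 0 h, 18 h and 48 h but not at 120 h. Dmrtb1 +9986 had 100 and 141 at 0 h and 93 in 1 library at 120 h, Dmrtb1 -2046 had 50 and 54 at 0 h only, and Dmrtb1 -5662 had single peaks of 69 at 48 h and 62 at 120 h.

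Rhox13 is an X-linked homeobox gene whose protein appears in differentiating spermatogonia. It had 1 region, Rhox13 +248 (chrX:38120921-38122034, CpG island), with 57 and 90 before RA, 38 and 49 after 18 h, 32 and 47 after 48 h and 61 and 80 after 120 h. These were among the lowest of the shared regions, with 0.29% to 6.08% of shared regions lower in 7 libraries and 37.4% in 120 h replicate 2. The highest summits of the Sohlh1, Sohlh2, Dmrtb1 and Rhox13 start regions lie outside the genes as GENCODE vM21 draws them. The distances +112, +4, +34 and +248 in their names are those of the peak nearest the start, which need not be the highest.

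**Figure D3:**
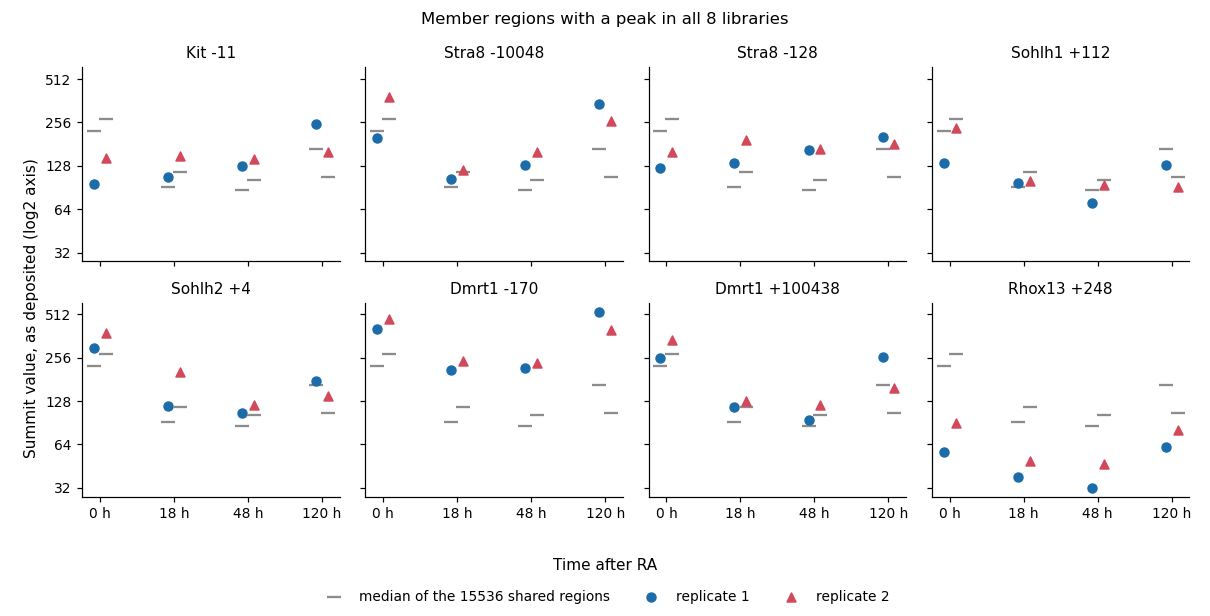
Summit values on a log2 axis are shown by time after RA for the 8 member regions with a peak in all libraries, circles for replicate 1 and triangles for replicate 2, with grey dashes at the median of the 15536 shared regions in the same library. Kit -11 and Stra8 -128 lie below the grey dashes at 0 h and above them in every later library, whereas Rhox13 +248 lies below them throughout.

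The heights of the 8 shared member regions were compared with 0 h by limma, fitted over all 15536 shared regions with adjusted p-values over all of them. With heights as deposited, 5 of the 8 were lower at 18 h and 0 were higher, against 92.3% lower and 0.296% higher of all shared regions. At 48 h, 6 were lower and 0 higher, against 93.3% and 0.328%. At 120 h, 1 was lower and 0 higher, against 44.8% and 0.882%. Without adjustment, 6, 6 and 2 of the 8 had p under 0.05. The median log2 change of the members was -0.90, -0.96 and 0.02 at the 3 timepoints, and that of all shared regions -1.23, -1.36 and -0.75. The share of members called lower was below that of all shared regions at each timepoint, a difference for which no test was made.

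Stra8 -10048 and Dmrt1 +100438 fell by 1.32 and 1.27 on the log2 scale at 18 h (SE 0.37 for every region in this fit; limma, adjusted p = 0.00101 and 0.00141). Sohlh2 +4 fell by 1.12 (adjusted p = 0.00397), and it was the only member still lower at 120 h, by -1.11 (adjusted p = 0.00876). Dmrt1 -170 fell by 0.97 (adjusted p = 0.0116) and Sohlh1 +112 by 0.84 (adjusted p = 0.0274). Rhox13 +248 changed by -0.73 (adjusted p = 0.0529) at 18 h and fell by 0.89 at 48 h (adjusted p = 0.0192). Kit -11 had log2 changes of 0.11, 0.19 and 0.76 and Stra8 -128 of 0.19, 0.25 and 0.46, none past the threshold (adjusted p = 0.0798 or more). These counts rest on single libraries. Without 0 h replicate 2 the members called lower became 1 at 18 h, 2 at 48 h and 0 at 120 h, without 18 h replicate 1 they became 2 at 18 h, without 48 h replicate 1 they became 2 at 48 h, and without 120 h replicate 1 they became 3 at 120 h. Without 120 h replicate 2, Sohlh2 +4 was no longer called at 120 h and Kit -11 was called higher, with a log2 change of 1.09.

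From 18 h to 48 h, 0 of 8 members passed the threshold in either direction (limma, 0 at an unadjusted p under 0.05), against 0.00644% lower and 0% higher of all shared regions. Without adjustment, 255 of the 15536 shared regions were lower and 14 higher. From 48 h to 120 h, 2 were higher, Dmrt1 -170 with a log2 change of 1.03 (limma, adjusted p = 0.0308) and Stra8 -10048 with 1.06 (adjusted p = 0.0275), and 0 were lower, against 23.7% higher and 0.18% lower overall. Both calls were lost without 48 h replicate 1, 48 h replicate 2 or 120 h replicate 1, and without 120 h replicate 2 there were 4. With each library centred on its median region there were 0.

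Because heights of nearly all regions fell together after 0 h, they were also expressed relative to the median shared region of the same library. On this log2 scale Kit -11 was at -1.22 and -0.91 before RA, 0.23 and 0.37 after 18 h, 0.56 and 0.48 after 48 h and 0.59 and 0.58 after 120 h. Every later library was thus above the median region and both 0 h libraries were below it. The differences from 0 h were 1.37 ± 0.20 (SE) at 18 h, 1.58 ± 0.20 at 48 h and 1.65 ± 0.20 at 120 h (limma, adjusted p = 0.00264, 0.000525 and 0.000148), which are 2.58-fold, 3-fold and 3.14-fold. In raw rank, 6.04% and 15.1% of shared regions were lower than Kit -11 at 0 h, and 60.4% to 73% in the later libraries.

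Stra8 -128 was at -0.86 and -0.76 before RA, 0.55 and 0.73 after 18 h, 0.94 and 0.72 after 48 h and 0.28 and 0.78 after 120 h relative to the median region. No later library overlapped 0 h. The differences from 0 h were 1.45 ± 0.22 (SE), 1.64 ± 0.22 and 1.35 ± 0.22 (limma, adjusted p = 0.00316, 0.000854 and 0.000897), which are 2.74-fold, 3.13-fold and 2.54-fold. For both regions these calls held in all 11 alternatives tried, with log2 differences between 1.10 and 1.81 and adjusted p of at most 0.0414.

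Kit -11 and Stra8 -128 were the only 2 of 8 members higher on this scale at 18 h, against 1.25% of shared regions, and again at 48 h, against 3.26%. No member was lower, against 0.225% and 1.51%. Both regions were low at 0 h, so each was set beside the shared regions of like height at 0 h, within 0.25 log2. For Kit -11 there were 1684 such regions with a median relative change at 18 h of 0.19, and 98.8% changed less than Kit -11. For Stra8 -128 there were 2390 with a median of 0.10, and 99.6% changed less. Rhox13 +248, the lowest, had a relative change of 0.53 against a median of 0.64 in its 367 like regions, of which 38.4% changed less.

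At 120 h, 5 of 8 members were higher than at 0 h relative to the median region and 0 were lower, against 23% and 15.8% of all shared regions. Besides Kit -11 and Stra8 -128, they were Stra8 -10048 at 1.00 ± 0.24 (SE), Dmrt1 -170 at 0.96 ± 0.20 and Rhox13 +248 at 0.85 ± 0.29 (limma, adjusted p = 0.00627, 0.00324 and 0.033). The 367 regions of like 0 h height to Rhox13 +248 had a median of 0.71 at 120 h. Of these, 52.9% were called higher and 56.1% changed less than it. For Kit -11, Stra8 -128, Stra8 -10048 and Dmrt1 -170, 97.8%, 97.7%, 96.5% and 94.7% of their like regions changed less. Dmrt1 -170 rose from 0.86 and 0.82 before RA to 1.69 and 1.91 after 120 h, with 18 h and 48 h libraries between 1.05 and 1.33. Without 0 h replicate 1 or 120 h replicate 2 the count was 3, with Stra8 -10048 and Rhox13 +248 no longer called, and with quantile normalization it was also 3, with Dmrt1 -170 and Rhox13 +248 no longer called. Sohlh1 +112, Sohlh2 +4 and Dmrt1 +100438 had relative changes of 0.19, -0.22 and 0.35, not past the threshold. From 18 h to 48 h and from 48 h to 120 h, 0 of 8 members passed the threshold on this scale (0 and 3 at an unadjusted p under 0.05), against 0% in either direction for the first step and 9.47% higher and 7.45% lower for the second. Without adjustment, 428 of the 15536 shared regions were higher and 489 lower for the first step. For the second step 3288 were higher and 2507 lower.

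**Figure D4:**
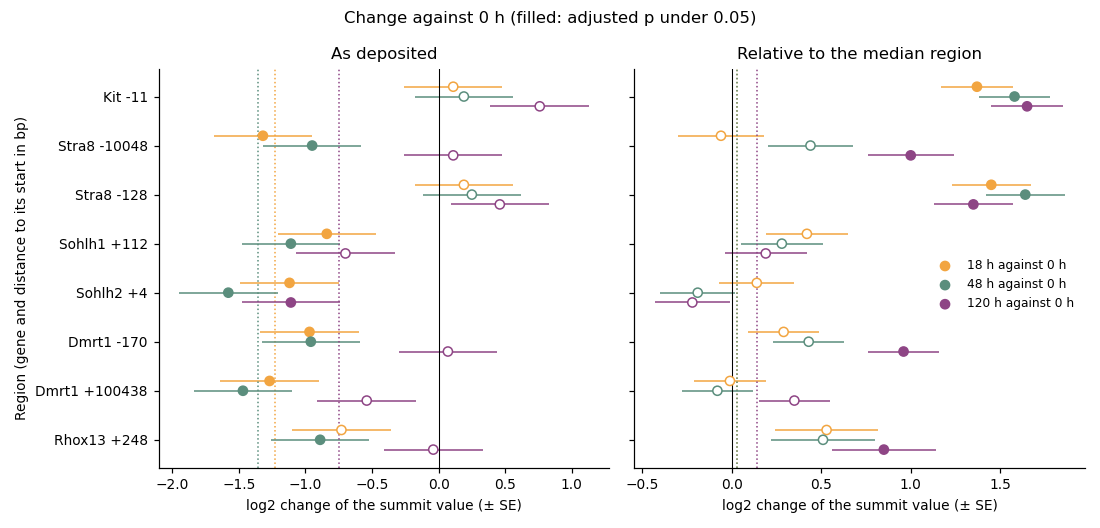
Points give the log2 change of the summit value against 0 h with its SE (bars), on the left as deposited and on the right relative to the median region of each library, filled where the adjusted p was under 0.05 and with dotted lines at the median change of all shared regions. Kit -11 and Stra8 -128 lie to the right of the other 6 regions at 18 h and 48 h in both panels, at 1.37 to 1.64 in the right one.

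The 7 genes together had 22 and 25 peaks before RA, 11 and 13 after 18 h, 12 and 16 after 48 h, and 19 and 14 after 120 h, where a region may hold several peaks of 1 library. The mean was 23.5 at 0 h and 14.2 ± 2.93 (SD, n = 6) later, a difference of 9.33 that is as large as any split of the 8 libraries gives (exact permutation test, two-sided, p = 0.0714, adjusted p = 0.19 over 8 tests). The 0 h libraries also had the most peaks over the whole genome, 72215 and 69089 against 24643 to 39551 later. The difference is thus not particular to these genes. When the 24643 highest peaks of each library were taken, the difference for the 7 genes was -3.83. By gene, Stra8 held 6 in both 0 h libraries and 3 or 4 in every later library, and Sohlh2 held 2 in both 0 h libraries and 1 in every later library. These were the 2 of 7 genes with more peaks in both 0 h libraries than in any later one, against 32.1% of the 15054 genes with peaks at all timepoints.

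Dmrtb1 had 4 and 5 peaks before RA, 1 in each library after 18 h, 1 and 3 after 48 h, and 5 and 3 after 120 h, so its numbers at 0 h and 120 h overlapped. Kit went from 4 and 3 to 1 and 2 at 18 h and stayed at 2 or 3 afterwards. Dmrt1 ranged from 2 to 6 and Sohlh1 from 1 to 2 with overlap between 0 h and later. Rhox13 had 1 peak in 6 libraries and 2 in both 48 h libraries.

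**Figure D5:**
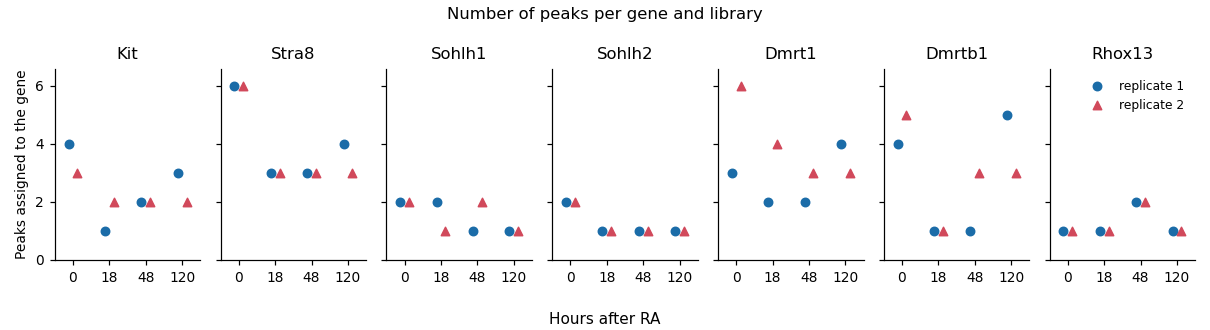
The number of peaks assigned to each gene is plotted by hours after RA, a circle for replicate 1 and a triangle for replicate 2. Stra8 drops from 6 at 0 h to 3 or 4, Sohlh2 from 2 to 1, and Dmrtb1 returns to 5 and 3 at 120 h.

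The gene starts with the profile most like each member start were sought among 8970 start regions with a peak in every library, by the root mean square difference of log2 heights over the 8 libraries after centring each library on its median and each region on its mean. The closest to Kit -11 were LOC101055644 and Ephb4 at 0.17 and Stra8 at 0.21, and the closest to Stra8 -128 were Slc39a11 and Brpf3 at 0.20 and Kit at 0.21. The median distance of all candidates was 0.65 and 0.66. Kit and Stra8 were thus each among the 3 nearest of the other. Dmrt1 -170 had much closer matches, with 0.05 for the start shared by 4930539J05Rik and Ube2d3 and 0.06 for Matr3 and Rpl11. The nearest were Proser2 and Lrrc3 at 0.08 and Ica1l at 0.09 for Sohlh2 +4, Rbm12b2, Commd8 and Pi4kb at 0.09 for Sohlh1 +112, and Bahd1 at 0.10, Apopt1 and Bag5 at 0.11 and Pdpr at 0.12 for Rhox13 +248.

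Other genes of RA-driven differentiation, KIT signalling and meiotic entry were taken as a list of 25. Peaks were assigned to 23 of them, and 20 of the 25 had peaks at all timepoints, against 72.8% of the genes counted at any timepoint. Their 27 shared regions, from 20 genes, fell with the rest as deposited, with 23 lower at 18 h, 25 at 48 h and 11 at 120 h and 0 higher, against 92.3%, 93.3% and 44.8% lower of all shared regions. Their median log2 changes were -1.06, -1.25 and -0.66. Relative to the median region, 0 of the 27 were higher at 18 h and 1 at 48 h, in Ccnd2, against 1.25% and 3.26% of all shared regions. At 120 h, 9 were higher, in Akt1, Ccnd2, Dazl, Mael, Prdm9, Rara, Rec8, Spo11 and Sycp3, and 1 was lower, in Uchl1, against 23% higher and 15.8% lower of all shared regions. Between 48 h and 120 h as deposited, 6 of the 27 were higher, against 23.7% of all shared regions, a share near that of the list.

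The listed genes with the smallest adjusted p as deposited all fell. Uchl1, known for its product in undifferentiated spermatogonia, had 353 and 428 before RA, 156 and 143 after 18 h, 98 and 131 after 48 h and 113 and 61 after 120 h in a region 13863 bp from its start, and its change at 120 h was -2.23 as deposited (limma, adjusted p = 8.05e-08) and -1.34 relative to the median region (adjusted p = 0.000895). The Uchl1 start itself had 432 and 430 before RA and 296 and 204 after 120 h. The change of that start at 120 h was -0.81 as deposited (limma, adjusted p = 0.061) and 0.08 relative to the median region (limma, adjusted p = 0.775). The Sall4 start, of a factor of undifferentiated and differentiating spermatogonia, went from 351 and 462 before RA to 90 and 135 after 48 h. The start of Foxo1, a factor of spermatogonial stem cells, went from 277 and 270 to 61 and 119. In the Uchl1 region 13863 bp from its start and in the Sall4 and Foxo1 starts, all later libraries were below both 0 h libraries. That pattern was not counted over all shared regions. As deposited, 93.3% of all shared regions were called lower at 48 h. Relative to the median region, the Sall4 and Foxo1 starts changed by -0.48 and -0.29 at 48 h (limma, adjusted p = 0.238 and 0.643). Neither passed the threshold on that scale at 18 h or 120 h.

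The start of Kitl, the gene of the KIT ligand, made in the testis by Sertoli cells, had 126 and 137 before RA, 31 and 46 after 18 h, 43 and 66 after 48 h and 70 and 34 after 120 h. Its relative change at 18 h was -0.54 (limma, adjusted p = 0.302). A Rarg region, of an RA receptor gene, went from 292 and 371 before RA to 92 and 116 after 48 h, and a Neurog3 region, of a progenitor factor, from 374 and 408 to 94 and 171. Relative to the median region, these 2 changed by 0.19 and 0.37 at 18 h and by -0.28 and -0.23 at 48 h. Neither passed the threshold on that scale at any timepoint. Kit -11, whose product binds the Kitl product, did not fall below its 0 h range in any library.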

How the data were processed

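The deposited ATAC-seq peak table was used as it stands. Per the labels and the study's methods, the authors aligned reads to mm10 with BWA 0.7.12, removed duplicates, reduced libraries to equal tag numbers and called peaks in each library with MACS2 2.1.0 at p = 1e-07 without a control. The deposited values are signal, the tag coverage at the summit and its mean over a peak. Reads per region were not used here, so the depth behind a height is unknown and no counting interval was given.

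Peaks overlapping by at least 1 bp were merged, and a timepoint was assigned to a region or gene only if its 2 libraries both had a peak. The log2 of the highest summit value was compared with limma 3.58.1 in R 4.3.3 (4 groups, no block, Benjamini-Hochberg adjustment, threshold 0.05), as deposited and with each library centred on its median, in the 15536 regions present in all 8 libraries. Regions without a peak in any library could not be fitted. Summed peak numbers and ratios were compared by exact permutation in Python 3.11.15. Merging and fit were tested on simulated data. The simulated heights held no shift of whole libraries, so the fit was not tested against such shifts. P-values rest on 2 mice a timepoint. In the fit as deposited the SE was 0.37 for every region, a spread pooled over all 15536 regions. A shift of a whole library moves all regions at once, and 2 mice a timepoint estimate it poorly. At 120 h, replicate 1 had a median log2 height of 7.38 and replicate 2 of 6.73 in the shared regions. The adjusted p-values as deposited may thus be too small. The permutation tests set 0 h against all later libraries, with their timepoints pooled.

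The members and lists were chosen with earlier results of these data known. Named were the 7 members with every region, at most 6 listed genes with the smallest adjusted p, and the 3 start regions most like each member start. Sequences come from the GRCm38 RefSeq genome and promoters from RefSeq, with features from GENCODE vM21. Alternatives were other scalings, the mean signal, a replicate block, other sets of libraries or regions, and other peak thresholds. Centring with a library left out or with only the libraries compared was added after the data were seen. The deposited browser track links were not used.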

Additional observations from a re-analysis of the deposited data

How the results depend on the processing

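The counts of member regions past the threshold changed with the scaling and with single libraries. With median centring or quantile normalization, 5 regions lower at 18 h became 2 higher, 6 lower at 48 h became 2 higher, 1 lower at 120 h became 5 higher (3 with quantile normalization), and 2 higher between 48 h and 120 h became 0. With heights missing from a library set to its lowest summit value, 15, 17 and 11 of 23 regions were called against 0 h. Of these 23 regions, 9 were counted at 0 h only, so their missing later heights were filled with that lowest value. A fall in them is largely set by the choice of regions and by the fill. Neither the direction of these calls nor the share among all regions was worked out, so no change is read from these counts. With only the 4 libraries compared, the 2 calls between 48 h and 120 h became 0. Relative to the median region, the 5 calls at 120 h became 3 with quantile normalization.

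Leaving out 1 library in turn gave 1 to 6 calls at 18 h, 2 to 6 at 48 h, 0 to 3 at 120 h and 0 to 4 between 48 h and 120 h, and relative to the median region 3 to 5 at 120 h and 0 to 1 between 48 h and 120 h.

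Replicate numbers did not pair the libraries. Between timepoints, the differences of replicate 1 and replicate 2 over 15536 regions had r of -0.22 to 0.25. With a replicate block the 2 calls between 48 h and 120 h became 1, with the block and median centring 0, the counts against 0 h were 5, 6 and 1, and the peak number difference stayed 9.33 (exact permutation test, p = 0.125). With the block and median centring together, those against 0 h were 2, 2 and 5.

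Under median centring, with or without the block, changes as deposited turned positive for Dmrt1 -170 (0.29 at 18 h, 0.43 at 48 h), Sohlh1 +112 (0.42, 0.28 and 0.19 at 18 h, 48 h and 120 h), Sohlh2 +4 (0.14 at 18 h), Stra8 -10048 (0.44 at 48 h), Dmrt1 +100438 (0.35 at 120 h) and Rhox13 +248 (0.53, 0.51 and 0.85). With quantile normalization these were 0.29 and 0.48, 0.45, 0.28 and 0.28, 0.14, 0.52, 0.19, and 0.16 at 18 h and 0.81 at 120 h for Rhox13 +248. With the mean signal of the peak, Rhox13 +248 was 0.07 at 120 h. Relative to the median region, Dmrt1 +100438 was 0.02 at 18 h with only the 4 libraries compared, and Rhox13 +248 was -0.02 at 48 h with quantile normalization. None of these but Rhox13 +248 at 120 h under centring passed the threshold.

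With 1 library left out, changes as deposited ranged across 0 for Kit -11 (-0.18 to 0.40 at 18 h, -0.10 to 0.48 at 48 h), Stra8 -128 (-0.07 to 0.46 at 18 h), and at 120 h for Dmrt1 -170 (-0.14 to 0.28), Stra8 -10048 (-0.36 to 0.58) and Rhox13 +248 (-0.37 to 0.29). Relative to the median region they did so for Dmrt1 +100438 (-0.12 to 0.10), Sohlh2 +4 (-0.08 to 0.36) and Stra8 -10048 (-0.39 to 0.28) at 18 h and for Sohlh1 +112 (-0.09 to 0.47) at 120 h. The number of member peaks at 0 h exceeded later ones by 9.67 with peaks of at least 50 and by 3.50 with peaks in the gene or near its start, and it was lower by -3.83 with the 24643 highest peaks of each library. The cause of these changes was not tested.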
